A study of Bos taurus with 30 samples.

Results

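Skin of tick resistant and tick susceptible cattle was compared before any tick had been applied, over all 24016 probe sets of a bovine expression array that are not controls. The members are the 8 arrays whose titles place them at 0 h, 5 from resistant and 3 from susceptible animals, of 30 arrays in the series. All animals were of an F2 population from Holstein (Bos taurus) and Gyr (Bos indicus) parents, sampled by skin biopsy. The other 22 arrays are from skin 24 h and 48 h after infestation, and 13 animals were used in all. The 5 resistant arrays carry the animal numbers 01 to 05 and the 3 susceptible arrays the numbers 09, 10 and 11, so no animal is on both sides. Age, sex and the way in which the animals were classed as resistant are not given in the sources used here. The comparison asks whether the skin of the 2 phenotypes differed before the ticks fed. With 5 and 3 arrays, a lack of calls does not show that the skin was alike.

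Ticks feed on cattle skin for days, and the bite is met by keratinocytes, resident and recruited leukocytes, and the vessels that supply them. Interferon gamma, made mainly by T cells and natural killer cells, switches on chemokines such as CXCL10, guanylate binding proteins and the machinery that loads peptides on class I and class II molecules. Sebaceous glands, which open into the hair follicle, make the waxes and triglycerides that coat the skin surface, and their lipid genes are usually high where a biopsy holds many glands.

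The biopsies had the marker levels of skin. The basal keratins KRT5 and KRT14 lay between 13.52 and 14.71 on the log2 signal scale in the 8 arrays, and the collagen gene COL1A2 lay between 14.27 and 15.30. Array medians at 0 h lay between 7.17 and 7.40, and pairwise correlations across probe sets lay between 0.916 and 0.951. On the first principal component of the 8 arrays, which held 21.2% of the variance, resistant array 05 stood apart at 46.3, with the others between -25.7 and 15.9. The 3' minus 5' difference of the elongation factor control, a sign of RNA or labelling quality, was 1.07 and 1.02 in resistant arrays 01 and 02 and -0.35, -1.07 and -1.31 in resistant arrays 03, 04 and 05, against -0.92, 0.88 and -0.14 in susceptible arrays 09, 10 and 11. The actin control did not split the resistant arrays in this way. Its difference was 2.89 and 1.92 in resistant arrays 01 and 02 and 2.63, 3.43 and 2.62 in resistant arrays 03, 04 and 05. In susceptible arrays it was 1.46, 3.06 and 3.16. The GAPD difference did split them, at 0.76 and 0.575 in resistant arrays 01 and 02 and 0.37, 0.19 and 0.35 in resistant arrays 03, 04 and 05. In susceptible arrays 09, 10 and 11 the GAPD difference was 0.67, 0.72 and 0.59. Over the 100 probe sets that differed most between animals, the resistant arrays numbered 03, 04 and 05 lay closest to later arrays numbered 04, 05 and 06, while the other 5 lay closest to later arrays of their own number. All 8 lay closest to an array of their own phenotype, so the doubt is about the animal number and not about the group.

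No probe set passed the test between resistant and susceptible skin before infestation. Of 13809 probe sets kept, limma called 0 (0%) at an adjusted p under 0.05, and the smallest adjusted p was 0.978. At an unadjusted p under 0.05 there were 623 (4.51%), fewer than the 690.45 that chance alone gives on average. Of these, 433 (3.14%) were lower and 190 (1.38%) were higher in resistant skin. The arrays of the 2 phenotypes did not overlap in 437 probe sets (3.16%) that were lower and in 201 (1.46%) that were higher in resistant skin, and 52% of all probe sets had a difference below 0. Of those past the unadjusted threshold, the share that was lower was 69.5% on the deposited scale and 44.2% after each array was centred on its median (256 lower and 323 higher), so the direction of the excess depends on the scaling. Without susceptible array 10 the number lower was 284. The median difference over all probe sets was -0.01 on the deposited scale, 0.05 after centring and 0.01 after quantile normalization. The typical standard error of a difference was 0.23. All differences below are resistant minus susceptible on the log2 scale with their standard error (SE) from limma. The next paragraph gives an alternative fit with its own n and adjusted p. Elsewhere p-values are unadjusted, n is 5 and 3 at 0 h, and every adjusted p other than that of C7H5orf15 rounds to 1. None of these genes can therefore be called changed.

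Leaving out the 3 resistant arrays of uncertain number, an alternative chosen after the data were seen, left 2 arrays against 3 and gave 4 calls. In that fit MMP14, a membrane-bound protease that cuts collagen, fell by 4.12 ± 0.59 (limma, adjusted p = 0.00338). IPO11, a nuclear import receptor, fell by 2.79 ± 0.43 (limma, adjusted p = 0.00476), and a second probe set of IDO1 fell by 3.73 ± 0.66 (limma, adjusted p = 0.0287). The last of the 4 has no gene name and fell by 4.23 ± 0.76 (limma, adjusted p = 0.0287). MMP14 was at 3.32 and 3.56 in resistant arrays 01 and 02 and at 6.76, 6.48 and 7.84 in resistant arrays 03, 04 and 05, against 7.29, 7.92 and 7.45 in susceptible arrays. Resistant array 05 overlapped the susceptible arrays for MMP14. IPO11 was at 4.08 and 4.03 in resistant arrays 01 and 02. The 3 left out lay within its susceptible range of 6.42 to 7.52. In resistant arrays 01 and 02 the IDO1 probe set was at 4.18 and 4.75, against 7.22 or more in every other array. The unnamed probe set was at 8.20 and 7.99, against 10.45 or more. Over all 8 arrays none of the 4 was called, and IPO11 differed by -0.96 ± 0.56. In all 4 the low values are those of resistant arrays 01 and 02, which had the high elongation factor difference. The GAPD difference was also higher in resistant arrays 01 and 02 than in resistant arrays 03, 04 and 05. The actin control did not share this split. Susceptible array 10 had an elongation factor difference nearly as high. Within its group it was the highest for MMP14 (7.92) and in the middle for IPO11 (6.57) and IDO1 (8.13). For the unnamed probe set it was the lowest, at 11.43 against 13.59 and 11.96. The part of RNA or labelling quality in these calls was not tested.

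The genes with the smallest p among those lower in resistant skin were of mixed function. C7H5orf15, a gene of no well-known role, had 6.77, 6.01, 6.65, 6.29 and 7.33 in resistant arrays 01 to 05, against 8.03, 7.59 and 7.54 in susceptible arrays 09, 10 and 11. All 5 resistant arrays were below all 3 susceptible arrays, by -1.11 ± 0.28 on average (limma, unadjusted p = 0.000462, adjusted p = 0.978). COG4, a subunit of the complex that tethers vesicles at the Golgi, had 7.92, 7.41, 7.60, 8.20 and 7.85 in resistant arrays, against 8.32, 8.45 and 8.49 in susceptible arrays. PIGN, an enzyme that builds the glycolipid anchor of many surface proteins, had 7.32, 7.78, 8.56, 8.64 and 7.60 in resistant arrays, against 8.92, 9.05 and 8.87 in susceptible arrays. Neither gene overlapped between the groups, and the differences were -0.62 ± 0.16 for COG4 and -0.97 ± 0.27 for PIGN. The list of Golgi and anchor genes had values on both sides of 0: 8 of 18 measured genes were lower, 3 of them at an unadjusted p under 0.05 (PIGK is the third), and the median was 0.01. Over all 7016 genes, each read by its brightest probe set, 49.1% had a difference below 0, 2.68% were lower and 1.6% were higher at an unadjusted p under 0.05.

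Other genes with a small unadjusted p were ITGB4, ELN, IGFBP7, SYNE2 and APOA1. ITGB4, which anchors basal keratinocytes to the basement membrane, had 6.51, 6.51, 6.83, 6.78 and 6.52 in resistant arrays, against 7.11, 8.21 and 7.49 in susceptible arrays. ELN, which encodes elastin, had 6.60, 6.98, 6.57, 6.69 and 5.92 in resistant arrays, against 7.51, 8.08 and 7.06 in susceptible arrays. Both groups were apart for both genes, by -0.97 ± 0.27 for ITGB4 and by -1.0 ± 0.32 for ELN. IGFBP7, a secreted protein that binds insulin-like growth factors, lay between 12.92 and 13.30 in resistant arrays, against 13.50 to 13.76 in susceptible arrays, a difference of -0.49 ± 0.15. SYNE2, which ties the nucleus to the cytoskeleton, lay between 12.02 and 12.17 in resistant arrays, against 12.53 to 12.73 in susceptible arrays, a difference of -0.53 ± 0.16. These are bright probe sets whose spread within a group was small. APOA1, the main protein of high-density lipoprotein, had 7.23, 7.60, 6.76, 5.90 and 4.81 in resistant arrays, against 8.53, 8.34 and 7.55 in susceptible arrays. Resistant array 02 reached the lowest susceptible array for APOA1, and the difference was -1.68 ± 0.51 (limma, unadjusted p = 0.00285).

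Among genes with higher values in resistant skin, those with the smallest p were again of mixed function. KAT14, a histone acetyltransferase subunit, had 9.02, 9.22, 8.55, 8.93 and 8.71 in resistant arrays, against 8.25, 8.20 and 8.33 in susceptible arrays. The groups did not overlap and differed by 0.63 ± 0.18 (limma, unadjusted p = 0.00158). ALDH1A1, which makes retinoic acid from retinal, had 13.59, 13.55, 12.73, 13.71 and 12.81 in resistant arrays, against 12.35, 12.22 and 12.56 in susceptible arrays. It was higher in each resistant array than in each susceptible array, by 0.90 ± 0.28. EPHX1, an enzyme that opens epoxides, was higher by 0.73 ± 0.23, but resistant array 05 at 9.49 lay within the susceptible range of 9.30 to 9.83. SART1 and PDE4DIP were also among the 15 with the smallest p, at 0.52 ± 0.16 and 0.78 ± 0.24. Their other kept probe sets did not follow: 0.10 and -0.25 for SART1, and -0.17 and -0.32 for PDE4DIP.

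**Figure D1:**
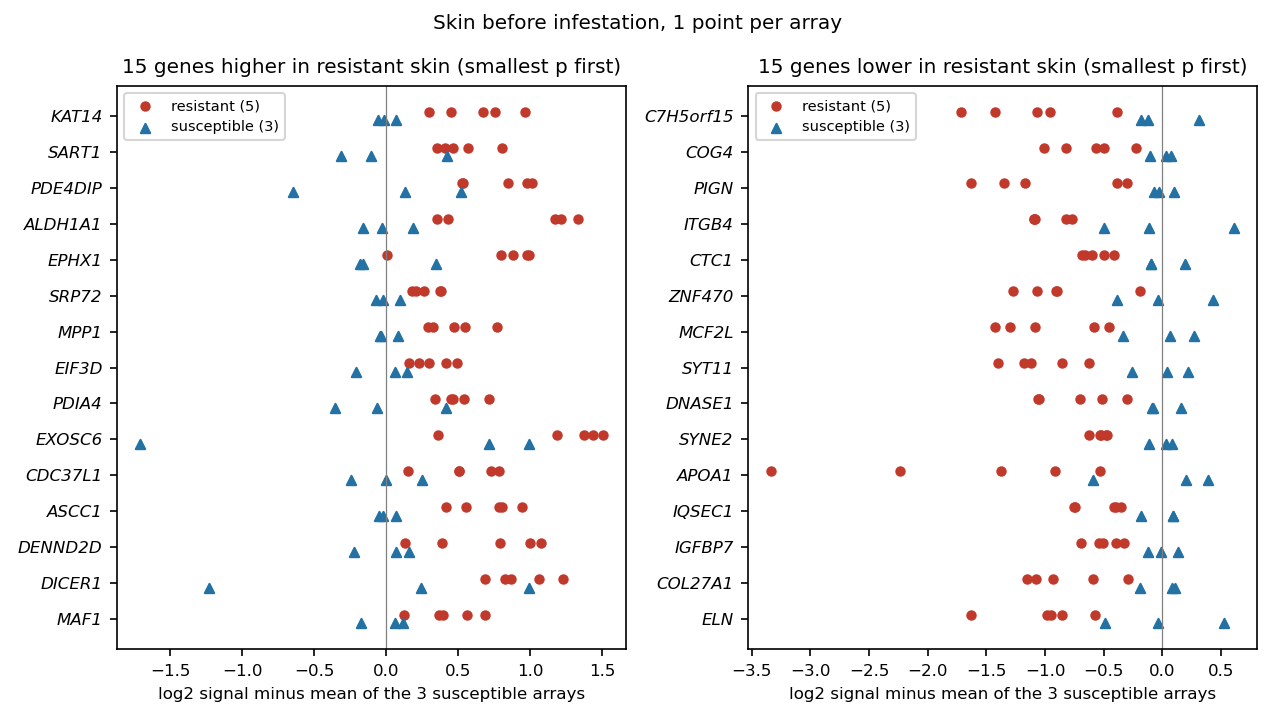
The 15 genes with the smallest unadjusted p in each direction before infestation. Each point is 1 array (5 resistant, 3 susceptible), the horizontal axis is its log2 signal minus the mean of the 3 susceptible arrays, and rows run from the smallest p at the top. C7H5orf15 and KAT14 are apart between the groups, while SART1 overlaps, and none passed the adjusted threshold.

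Among larger differences, CLDN1, which seals the tight junctions of the epidermis, had 10.80, 9.67, 11.10, 10.67 and 10.64 in resistant arrays, against 8.74, 9.65 and 8.66 in susceptible arrays. Resistant array 02 and susceptible array 10 were nearly level, and the mean difference was 1.56 ± 0.64, with 1.22 ± 0.59 at a second probe set. FGF10, a growth factor of the dermis that acts on epithelium, lay between 8.38 and 9.43 in resistant arrays, against 8.04 to 8.28 in susceptible arrays, a difference of 0.75 ± 0.33. APOD, a lipid carrier of the lipocalin family, lay between 12.07 and 13.61 in resistant arrays, against 11.24 to 12.01 in susceptible arrays, a difference of 0.96 ± 0.43. On the low side, GATA6, a transcription factor, had 6.91, 5.87, 6.85, 6.13 and 5.93 in resistant arrays, against 7.31, 8.16 and 8.63 in susceptible arrays. The arrays of both phenotypes were apart, by -1.70 ± 0.59.

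Interferon gamma targets were the list with the lowest median before infestation. Of 10 measured genes, 9 were lower in resistant skin, and the median was -0.72, against 0.00 over all genes. At an unadjusted p under 0.05, 6 were lower and 0 higher, beside 2.68% and 1.6% of all genes. For 6 genes (CXCL10, GBP5, IDO1, TAP1, PSMB9 and GBP4), each read by its brightest probe set, each resistant array was below each susceptible array, beside 2.72% of all genes. In the other direction 0 were apart, beside 1.72%. The median kept its sign after quantile normalization (-0.70) and after centring (-0.66), and lay between -0.79 and -0.56 in every alternative tried. In a biopsy, fewer cells of a type and less RNA per cell cannot be told apart.

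CXCL10, the chemokine that draws activated T cells, had 5.07, 5.62, 7.14, 6.53 and 5.53 in resistant arrays, against 7.87, 7.85 and 7.52 in susceptible arrays. The resistant arrays were spread over more than 2 log2 units and all lay below the tight susceptible group, by -1.77 ± 0.65 (limma, unadjusted p = 0.0112). GBP5, a guanylate binding protein of the inflammasome response, had 7.22, 6.81, 7.35, 6.89 and 5.75 in resistant arrays, against 8.0, 8.98 and 7.83 in susceptible arrays. IDO1, which breaks down tryptophan, had 8.06, 7.85, 8.59, 8.80 and 7.77 in resistant arrays, against 9.56, 9.82 and 9.19 in susceptible arrays. Both were apart between the groups, by -1.47 ± 0.54 for GBP5 and by -1.31 ± 0.53 for IDO1. The second probe set of IDO1 differed by -1.75 ± 0.72 and overlapped, with 8.59 in resistant array 04 against 7.9 to 8.54 in susceptible arrays. IRF8, a transcription factor of myeloid cells, differed by -0.45 ± 0.38 with overlapping arrays, and ICAM1, chosen after its value was seen, by 0.00.

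The class I pathway, which cuts proteins and displays their peptides to CD8 T cells, leaned the same way. Of 15 measured genes, 11 were lower, 5 of them at an unadjusted p under 0.05, beside 2.68% of all genes, and 1 (BOLA) was higher, beside 1.6%. The median was -0.34, and -0.16 without susceptible array 10. TAP1, which pumps peptides into the endoplasmic reticulum, had 9.22, 8.97, 9.14, 9.02 and 8.39 in resistant arrays, against 9.37, 9.83 and 9.85 in susceptible arrays. B2M, the light chain of class I, had 14.24, 14.28, 14.37, 14.29 and 13.99 in resistant arrays, against 14.71, 14.53 and 14.53 in susceptible arrays. Every resistant array was below every susceptible array for both, by -0.73 ± 0.28 for TAP1 and by -0.35 ± 0.14 for B2M. ERAP1, which trims the peptides, differed by -0.69 ± 0.26 with overlapping arrays. TAP1 and PSMB9 stand in this list and in the interferon gamma list.

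The BOLA probe set, which reads class I heavy chains, went the other way with a value decided by 2 animals. It had 11.50, 12.48, 12.29, 12.61 and 12.56 in resistant arrays, against 7.26, 5.63 and 12.77 in susceptible arrays. Susceptible arrays 09 and 10 were low and susceptible array 11 was the highest of all 8, so the groups overlapped. These genes are highly polymorphic and nearly identical to each other, and whether the probes read each animal's alleles alike was not tested.

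Type I interferon targets were lower in 19 of 21 genes, with a median of -0.38 (-0.33 after quantile normalization and -0.32 after centring). At an unadjusted p under 0.05, 3 genes were lower, beside 2.68% of all genes, and 0 higher, beside 1.6%. The arrays of 3 genes that were lower did not overlap, beside 2.72% of all genes. ISG15, a ubiquitin-like protein, had 7.96, 7.71, 8.02, 8.99 and 7.34 in resistant arrays, against 7.99, 9.34 and 9.82 in susceptible arrays. Susceptible array 09 was as low as the resistant arrays, and the difference was -1.04 ± 0.46. UBA7, the enzyme that charges ISG15, had 8.24, 8.35, 8.61, 8.61 and 8.28 in resistant arrays, against 8.77, 9.30 and 8.87 in susceptible arrays, with no overlap and a difference of -0.56 ± 0.21. STAT2, which carries the interferon signal to the nucleus, was also apart, between 7.86 and 8.07 in resistant arrays, against 8.17 to 8.52 in susceptible arrays. The signalling machinery itself, with 8 measured genes, had a median of -0.07, which turned to 0.00 without resistant array 05.

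Class II genes, which present peptides to CD4 T cells, were lower in 11 of 12, with 2 at an unadjusted p under 0.05, beside 2.68% of all genes. The median was -0.51 (-0.45 after centring), but -0.18 without resistant array 05, -0.28 without resistant array 02 and -0.27 without susceptible array 09. BOLA-DMB, which helps load class II molecules, had 9.06, 8.87, 9.60, 8.72 and 8.04 in resistant arrays, against 9.68, 9.82 and 9.21 in susceptible arrays. BOLA-DRA, the class II alpha chain, had 11.30, 11.27, 11.90, 11.09 and 10.50 in resistant arrays, against 11.86, 12.07 and 11.77 in susceptible arrays. For both genes resistant array 03 overlapped the susceptible arrays and resistant array 05 was the lowest. The differences were -0.71 ± 0.33 for BOLA-DMB and -0.69 ± 0.34 for BOLA-DRA. BOLA-DQB ran from 4.32 to 8.49 in resistant arrays, against 6.18 to 9.91 in susceptible arrays. Resistant array 03 and susceptible array 10 were high, and the BOLA-DQB difference of -1.97 ± 1.25 was within that spread. Other DQ genes among the 12, chosen after their values were seen, were BOLA-DQA2 (-0.78 ± 1.72), BOLA-DQA5 (-0.80 ± 1.79) and BOLA-DQA1 (0.05 ± 0.67). BOLA-DQA5 was at 9.98 in resistant array 03, 11.35 in susceptible array 10 and 4.99 or less in the rest. Whether the DQ probes read each animal's alleles alike was not tested, so the count and median of this list may hold allele differences.

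T cell genes had lower values in the same direction as the interferon targets. Of 10 measured, 8 were lower, with a median of -0.43 (-0.37 after centring). At an unadjusted p under 0.05, 2 were lower, beside 2.68% of all genes, and 0 higher, beside 1.6%. The mean level of the list ran from 7.35 to 7.91 in resistant arrays, against 7.99 to 8.12 in susceptible arrays. ZAP70, the kinase next to the T cell receptor, had 6.91, 6.39, 7.31, 6.45 and 6.34 in resistant arrays, against 7.92, 8.07 and 7.64 in susceptible arrays, apart by -1.19 ± 0.45. CD3G, a chain of the receptor complex, had 7.98, 6.74, 8.26, 7.67 and 7.15 in resistant arrays, against 8.73, 8.52 and 8.30 in susceptible arrays. Its groups just failed to touch, with a difference of -0.96 ± 0.47, while CD3D differed by -0.57 ± 0.38 and CD3E by -0.15 ± 0.24 with overlapping arrays. The part of T cell number in the interferon values was not tested.

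A separate list of chemokines and 2 of their scavenging receptors (ACKR1 and ACKR4) had 16 measured genes, all lower in resistant skin (15 of 16 after centring). The median was -0.36, and 1 gene was at an unadjusted p under 0.05, beside 2.68% of all genes. CCL26, a chemokine counted in the eosinophil list, was higher by 0.34 ± 0.65. The gene past that threshold was CXCL16, a membrane-bound chemokine, with 9.74, 9.80, 9.69, 9.14 and 9.88 in resistant arrays, against 10.56, 10.64 and 10.50 in susceptible arrays. The 2 groups were well apart, by -0.91 ± 0.34. CCL5, which draws T cells and eosinophils, ran from 6.43 to 8.60 in resistant arrays, against 8.25 to 8.66 in susceptible arrays, so that resistant arrays 01 and 03 overlapped, and differed by -0.76 ± 0.59.

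**Figure D2:**
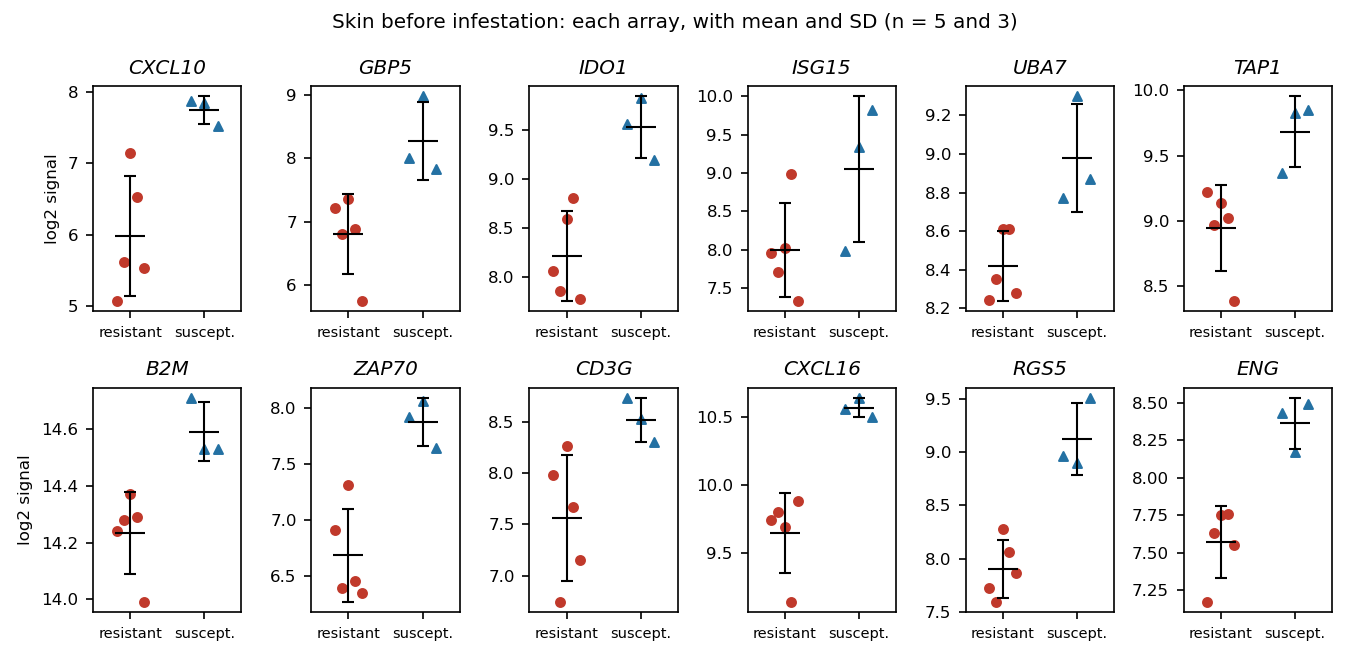
Log2 signal of 12 genes in each array before infestation, resistant at the left and susceptible at the right of each panel, with the mean (bar) and SD (whiskers) of 5 and 3 arrays. CXCL10, GBP5, IDO1, UBA7, TAP1, B2M, ZAP70, CD3G, CXCL16, RGS5 and ENG do not overlap between the groups, and ISG15 does. Vertical axes are cut to the range of each gene.

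Vessel and muscle genes were the other large group on the low side. Of 21 endothelial genes, 17 were lower (16 after centring), 5 at an unadjusted p under 0.05, beside 2.68% of all genes, and 6 without overlap, beside 2.72%. The median was -0.36, and -0.22 without resistant array 05. ENG, a receptor of vessel growth, had 7.17, 7.63, 7.75, 7.76 and 7.55 in resistant arrays, against 8.43, 8.17 and 8.49 in susceptible arrays, apart by -0.79 ± 0.26 (limma, unadjusted p = 0.00585). PLVAP, which forms the diaphragms of fenestrated capillaries, ran from 7.77 to 8.46 in resistant arrays, against 8.60 to 8.85 in susceptible arrays, a difference of -0.58 ± 0.26. The defining markers were less apart: PECAM1 differed by -0.44 ± 0.29 and CDH5 by -0.36 ± 0.32, both with overlap.

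All 15 smooth muscle genes were lower in resistant skin (14 after centring), 5 at an unadjusted p under 0.05, beside 2.68% of all genes. The median was -0.56, and -0.28 without susceptible array 11, the largest move of any alternative. RGS5, a marker of pericytes, had 7.72, 7.59, 8.28, 8.06 and 7.86 in resistant arrays, against 8.96, 8.90 and 9.51 in susceptible arrays, apart by -1.22 ± 0.50. DES, the muscle intermediate filament, had 10.50, 9.11, 9.15, 9.37 and 8.26 in resistant arrays, against 10.21, 10.62 and 11.76 in susceptible arrays. Resistant array 01 overlapped and susceptible array 11 was the highest, with a difference of -1.58 ± 0.73. PLN, which restrains the calcium pump of muscle, followed the same arrays, with a difference of -1.62 ± 0.66. The defining markers overlapped between the groups: ACTA2 differed by -0.33 ± 0.44 and MYH11 by -0.56 ± 0.38, with susceptible array 11 highest for both. Skeletal muscle genes were lower in 6 of 8 (4 of 8 after centring), and TCAP, a protein of the sarcomere, was apart at -1.31 ± 0.49. Of the defining markers of skeletal muscle, CKM differed by -0.94 ± 0.42 and ACTA1 by 0.15 ± 1.04, both with overlap. TNNC1, chosen after its value was seen, was higher by 0.30 ± 0.46.

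Genes of the sebaceous gland were high in 2 susceptible animals and low in the third. KRT79, a keratin of the sebaceous duct in mouse, had 1.87, 2.97, 2.91, 2.95 and 2.44 in resistant arrays, against 3.41, 7.98 and 7.25 in susceptible arrays. FAR2, which makes the fatty alcohols of wax, had 6.96, 5.21, 5.05, 6.12 and 5.84 in resistant arrays, against 5.64, 10.51 and 9.89 in susceptible arrays. PLIN2, a coat protein of lipid droplets, had 9.60, 8.88, 8.72, 8.88 and 8.89 in resistant arrays, against 8.92, 11.55 and 11.16 in susceptible arrays. In each case susceptible array 09 was near the resistant arrays, so that the difference rests on susceptible arrays 10 and 11. The differences were -3.59 ± 1.60 for KRT79, -2.84 ± 1.36 for FAR2 and -1.55 ± 0.74 for PLIN2. Of 16 measured genes of the list, 12 were lower (11 after centring) and 5 were at an unadjusted p under 0.05, beside 2.68% of all genes. The median was -0.38, and -0.24 without resistant array 05 and -0.23 without susceptible array 11.

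The same genes varied as widely at the later times. KRT79 ran from 2.04 to 7.40 in resistant arrays at 24 h, against 1.73 to 7.44 in susceptible arrays, and from 1.92 to 6.79 in resistant arrays at 48 h, against 1.53 to 8.34 in susceptible arrays. Susceptible array 10, at 7.98 before infestation, was at 1.73 at 24 h and at 8.34 at 48 h. All 5 resistant arrays at 0 h were in the low part of the range that both phenotypes covered later.

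**Figure D3:**
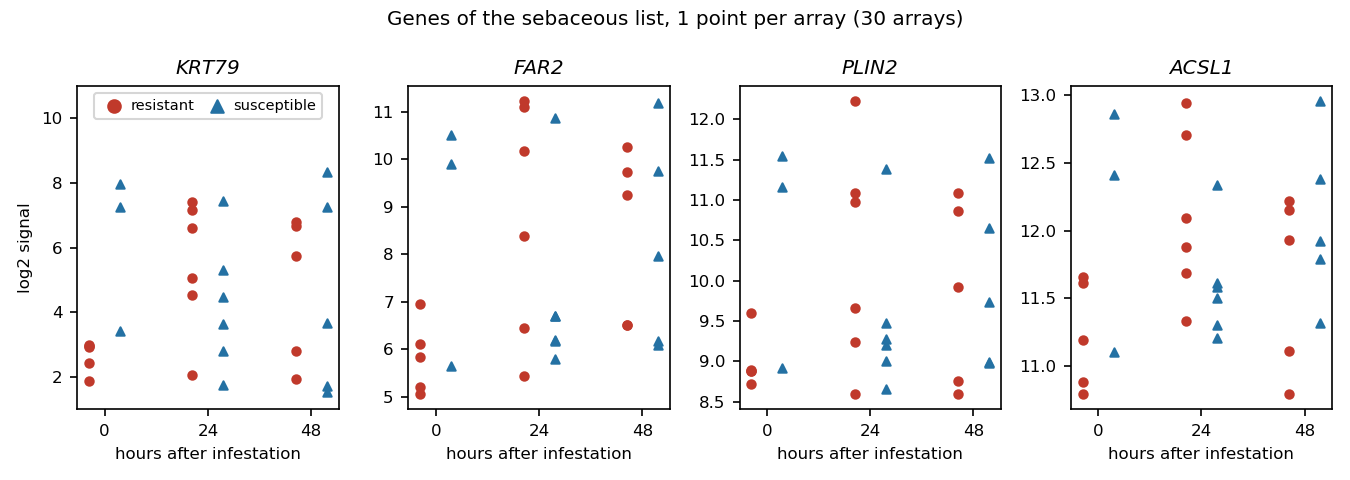
Log2 signal of KRT79, FAR2, PLIN2 and ACSL1 in all 30 arrays, by hours after infestation, with resistant arrays left of susceptible arrays at each time. At 0 h 2 susceptible arrays are high and 1 lies near the 5 resistant arrays, and at 24 h and 48 h both phenotypes hold high and low arrays.

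S100A7 and KRT10 had high and low arrays in both phenotypes. S100A7, an antimicrobial protein of stressed epidermis, had 6.81, 6.88, 6.13, 11.32 and 6.07 in resistant arrays, against 7.19, 10.23 and 12.11 in susceptible arrays. KRT10, the keratin of the upper epidermal layers, had 10.04, 10.46, 10.12, 12.68 and 10.39 in resistant arrays, against 11.78 and 12.90 in susceptible arrays 10 and 11, and susceptible array 09 lay just below all 5 resistant arrays. Both were high in resistant array 04 and in susceptible arrays 10 and 11. The list of basal keratinocytes had a median of -0.14, with 7 of 11 genes lower, and lay between -0.24 and -0.08 when 1 array was left out. KRT14 differed by 0.01 ± 0.58. PMEL and TYR, which build pigment granules and melanin, were lowest in resistant array 05, at 5.82 and 1.5, below all 3 susceptible arrays. Over 8 pigment genes the median was -0.24, and it was 0.32 without that array. Hair follicle genes, 5 in all, had a median of -0.01 that turned to 0.12 after quantile normalization and 0.05 after centring.

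Dermal matrix genes had no common direction. Of 34 fibroblast and matrix genes, 18 were lower, with a median of -0.01 that turned to 0.04 after centring. Besides ELN, COL6A2 and COL15A1 were lower at an unadjusted p under 0.05, by -1.0 ± 0.40 and by -0.54 ± 0.23. MFAP5, a protein of elastic microfibrils, was apart in the other direction, between 11.97 and 12.57 in resistant arrays, against 11.59 to 11.91 in susceptible arrays, a difference of 0.53 ± 0.36. The chains of type I collagen overlapped, with -0.60 ± 0.70 for COL1A1 and -0.40 ± 0.41 for COL1A2.

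Macrophage and mast cell lists had medians above 0, and the list of dendritic and Langerhans cells had not. Of 19 macrophage genes, 12 were higher and 7 lower in resistant skin, 0 at an unadjusted p under 0.05, with a median of 0.08 that turned negative without resistant array 02, resistant array 03 or susceptible array 11. CD68, a lysosomal protein of macrophages, differed by -0.17 ± 0.38, CSF1R, their growth factor receptor, by 0.21 ± 0.54, and C1QC, a chain of complement C1q, by 0.38 ± 0.40. All 4 measured dendritic and Langerhans cell genes were lower (3 after centring), with a median of -0.44 (-0.29 without susceptible array 10), and 0 were at an unadjusted p under 0.05. The lowest was CD1B, which presents lipids, at -1.71 ± 0.98. Of 6 mast cell, basophil and eosinophil genes, 4 were higher, with a median of 0.35 that turned to -0.01 without susceptible array 10. TPSB2, the mast cell tryptase, ran from 5.14 to 7.73 in resistant arrays, against 6.07 to 7.06 in susceptible arrays. Of 18 complement genes, 10 were higher, with a median of 0.04 that turned negative without resistant array 01, resistant array 03 or susceptible array 11.

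Housekeeping programmes showed small shifts. Of 61 ribosomal protein genes, 56 were lower on the deposited scale and 43 after centring, with a median of -0.09 that turned to 0.02 after quantile normalization. Of these, 2 were at an unadjusted p under 0.05, beside 2.68% of all genes, and 12 were lower without overlap, beside 2.72%. RPL27A, 1 of these, was apart by -0.24 ± 0.11. Of 73 genes of the respiratory chain, 48 were higher, with a median of 0.05 (0.02 after quantile normalization and 0.11 after centring). Without susceptible array 09 that median was 0.00, and it lay between 0.02 and 0.03 without resistant array 01, 02 or 05. UQCRC1, a subunit of complex III, was higher by 0.33 ± 0.16. Genes of the endoplasmic reticulum stress response were higher in 12 of 13, with a median of 0.23 (0.21 after quantile normalization and 0.28 after centring). That median was 0.13 without susceptible array 10 and 0.06 in the lowest of all alternatives. PDIA4, which forms disulphide bonds in new proteins, had 9.89, 9.80, 10.07, 9.69 and 9.82 in resistant arrays, against 9.77, 9.0 and 9.29 in susceptible arrays. Susceptible array 09 overlapped the resistant arrays, and the difference was 0.50 ± 0.17 (limma, unadjusted p = 0.00603). Hypoxia and glycolysis genes were higher in 20 of 25, with a median of 0.09 that was 0.02 without susceptible array 09, 0.05 without susceptible array 10 and 0.19 without susceptible array 11. NDRG1, a gene induced by low oxygen and the highest of that list, was apart by 0.57 ± 0.25. EPAS1, the lowest of that list, differed by -0.56 ± 0.28 with overlapping arrays.

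**Figure D4:**
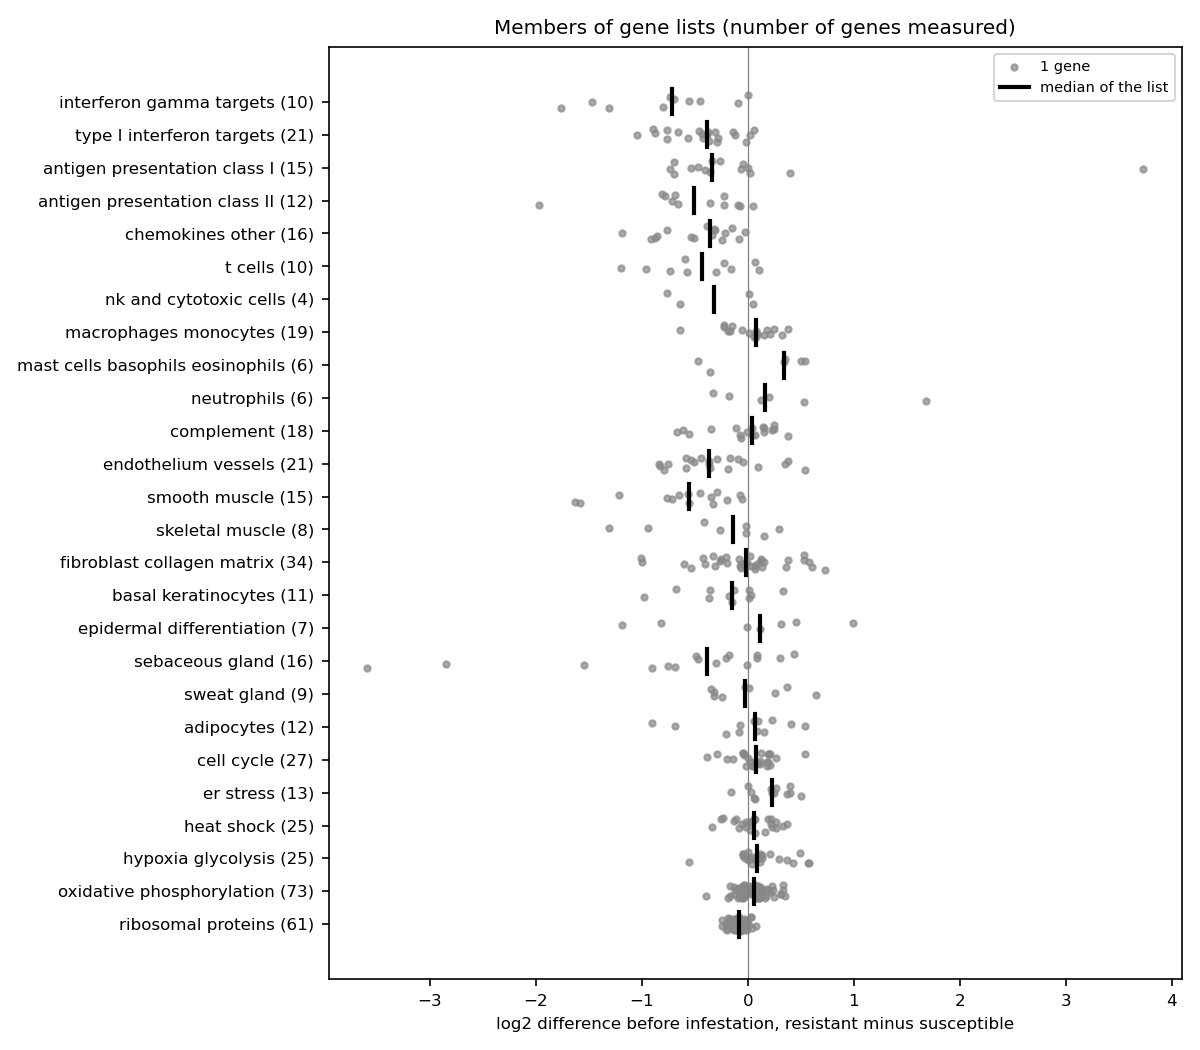
Log2 differences before infestation (resistant minus susceptible) for the measured genes of 26 lists, 1 point per gene, with the median of each list as a bar and its number of genes in brackets. Interferon gamma targets, class II genes and smooth muscle genes have medians of -0.72, -0.51 and -0.56, macrophage genes 0.08 and ribosomal proteins -0.09.

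Whether the differences before infestation were those of the later times was tested as the change in the difference. No probe set passed: limma called 0 of 13809 (0%) for 0 h minus 24 h, with 255 (1.85%) at an unadjusted p under 0.05, and 0 (0%) for 0 h minus 48 h, with 405 (2.93%). The 255 became 409 without susceptible array 09 and 524 with array weights. Resistant and susceptible arrays themselves differed at an unadjusted p under 0.05 in 608 probe sets (4.4%) at 24 h and in 1391 (10.1%) at 48 h. The 3 times share animals, so their values are not independent. They do not hold the same animals either. By the numbers given, susceptible animals 08, 12 and 13 at 24 h and 07 and 13 at 48 h have no 0 h array. The same holds for resistant animal 06 at both later times. The part of these animals in the changes below was not tested.

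The interferon gamma targets had medians of -0.72, -0.16 and 0.05 at 0 h, 24 h and 48 h. For 3 of the 10 genes the difference was more negative at 0 h than at 48 h at an unadjusted p under 0.05, beside 2.1% of all genes, and for 0 genes more positive, beside 1.24%. CXCL10 differed by -1.77 ± 0.65 at 0 h and by -0.55 ± 0.56 at 48 h, a change of -1.21 ± 0.86. PSMB9, an immunoproteasome subunit chosen after its values were seen, differed by -0.70 at 0 h and by 0.48 ± 0.26 at 48 h, a change of -1.17 ± 0.40 (limma, unadjusted p = 0.00639). Class II genes had medians of -0.51, -0.07 and 0.51, and for 7 of 12 the difference was more negative at 0 h than at 48 h at an unadjusted p under 0.05, beside 2.1% of all genes, and for 0 more positive, beside 1.24%. BOLA-DRA differed by -0.69 at 0 h and by 0.68 ± 0.29 at 48 h. T cell genes had medians of -0.43, 0.03 and -0.05, with 0 of 10 past an unadjusted p under 0.05 against 48 h.

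Macrophage genes had medians of 0.08, 0.00 and 1.23 at 0 h, 24 h and 48 h. For 13 of 19 the difference was more negative at 0 h than at 48 h at an unadjusted p under 0.05, beside 2.1% of all genes, and for 0 more positive, beside 1.24%; among the 13 was CD68, with -0.17 at 0 h and 1.23 ± 0.33 at 48 h. Mast cell, basophil and eosinophil genes had medians of 0.35, 0.38 and 1.57, and complement genes had 0.04, -0.09 and 0.76. Smooth muscle genes had medians of -0.56, 0.00 and -0.08, and sebaceous genes -0.38, 0.22 and 0.05. For the sebaceous list 5 of 16 genes were more negative at 0 h than at 24 h at an unadjusted p under 0.05, beside 1.2% of all genes, and 0 were more positive, beside 0.485%.

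**Figure D5:**
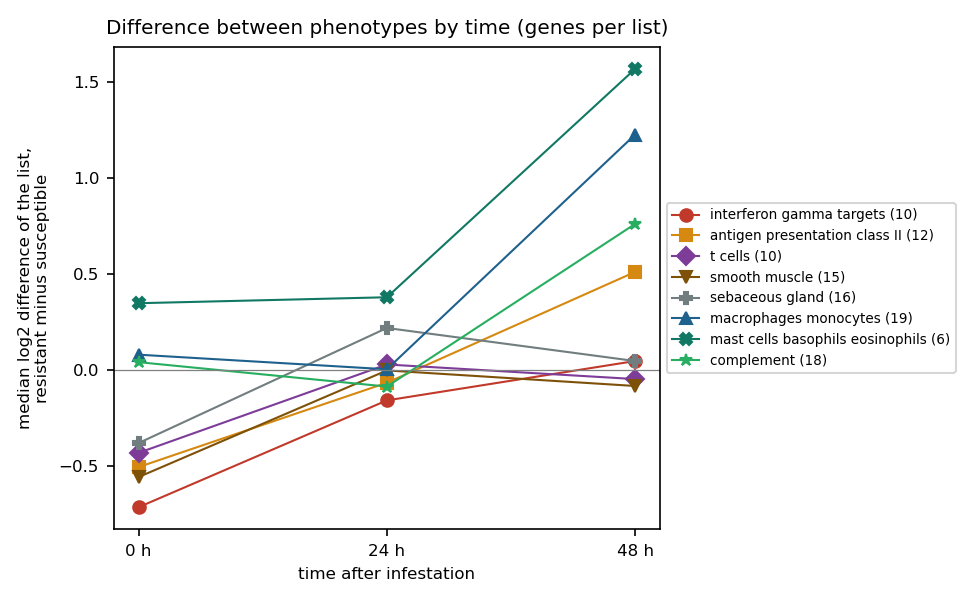
Median log2 difference (resistant minus susceptible) of 8 gene lists at 0 h, 24 h and 48 h after infestation, with the number of genes in brackets. Macrophage, mast cell and complement lists are near or above 0 at 0 h and highest at 48 h, while the interferon gamma, T cell and smooth muscle lists are lowest at 0 h.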

How the data were processed

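Skin RNA was measured on 1-colour Affymetrix bovine arrays. Biopsies were kept in RNAlater, and RNA was extracted with Trizol, cleaned on RNeasy columns and labelled with biotin by the 3' IVT Express kit from 50 ng, as the labels' protocols state. What the authors deposited is log2 signal made with MAS5, per the submitters' processing notes, whose version was not found in the sources used here. On the linear scale each array had a trimmed mean of 500. Precision is limited by the number of arrays.

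These values were not normalized again. The table holds 24128 probe sets, from which 112 controls were removed, and 13809 at or above their array's median in at least 3 of the 30 arrays were kept. The platform annotation gives 1 symbol for 13292 probe sets, several for 86 and none for 10638. The RefSeq table held the gene IDs of 13263, and 0 symbols needed an update. In gene lists the brightest kept probe set stands for a gene.

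The linear model held a mean for each phenotype at each time, over all 30 arrays (limma 3.58.1, lmFit and trended eBayes, under R 4.3.3). Tests were two-sided, with Benjamini-Hochberg adjustment over all kept probe sets and a threshold of 0.05. The script was tested on simulated data. Lists are described by counts and medians, with no test. Named are the 15 genes with the smallest p in each direction, the 10 with the largest differences among genes without overlap, the 4 members of each list with the smallest p, and the defining markers of cell types. The text gives some of these, settled after their values were seen. The members and lists were chosen with earlier results of these data known.

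Animal numbers recur across times but not between the groups compared. As a check, each 0 h array was matched to later arrays over 100 probe sets: 5 of 8 lay closest to their own number. The alternatives were other normalizations, filters, terms, blocks and array weights, and leaving out arrays. Whether samples of a group came from separate animals rests on the labels. Figures used Python 3.11.15 and matplotlib 3.10.9.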

Additional observations from a re-analysis of the deposited data

Results flagged for a closer look

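The values below are those in which 1 of the 5 resistant arrays at 0 h stood far from the other 4, by a gap that was large beside the range of the group. Chance gives such a gap in about 1 of 20 groups, and 128 named genes and 47 list means were looked at.

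Resistant array 05 was lowest for EPHX1 (9.49, next 10.28), IRF9 (7.11, next 8.05) and CD3E (7.39, next 7.75), and for the mean of the interferon signalling list (9.25, next 9.61). The same array was highest for KRT14 (14.32, next 13.97) and TGM3 (11.25, next 9.52), keratinocyte genes. Resistant array 04 was highest for S100A7 (11.32, next 6.88) and KRT10 (12.68, next 10.46), and lowest for the alarmin IL33 (6.70, next 9.40) and for CXCL16 (9.14, next 9.69). Resistant array 02 was lowest for the peptide transporter SLC15A1 (4.76, next 5.97) and for the mean of the endoplasmic reticulum stress list (10.50, next 10.91), and highest for the mean of the coagulation list (10.83, next 10.53). Resistant array 03 was highest for BOLA-DQB (8.49, next 5.15), and resistant array 01 for PLIN2 (9.60, next 8.89).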

How the results depend on the processing

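The number of probe sets with an adjusted p under 0.05 at 0 h was 0 in the reported fit and in 21 of 22 alternatives, leaving out each array included, and 4 without the 3 resistant arrays of uncertain number, where MMP14 was also the 1 call for the change from 48 h. At an unadjusted p under 0.05, 433 probe sets were lower and 190 higher. The number lower was 256 after centring on the array median, 814 with no filter and 733 with array weights. The number higher was 323 after centring, 343 with no filter, 295 with only the 8 arrays and 348 with array weights. Leaving out each array gave 284 to 490 lower and 159 to 208 higher, lowest for the first without susceptible array 10. With the animal number as a random replicate block, 408 were lower and 173 higher, and the block changed no call; the animal correlation was 0.143, and 0.208 with 3 numbers moved. With the elongation factor control as a term, added after the data were seen, 462 were lower and 233 higher. For the change against 48 h the 405 at an unadjusted p under 0.05 became 654 with a block on the moved numbers and 696 with array weights, and for the change against 24 h the 255 became 524 with array weights. Of 128 named genes, 10 changed sign in some alternative, 0 of them with an unadjusted p under 0.05. Of 47 list medians, 23 changed sign in some alternative.

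Detection calls are not used here, so whether dim genes such as KRT79 in resistant skin were above background was not tested. With 3 susceptible arrays, 1 animal moves a mean by much, as for the BOLA and sebaceous values, and the animal numbers of 3 resistant arrays are in doubt.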

Other observations

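The probe sets here were chosen after their values were seen, from those with the largest spread over the 8 arrays at 0 h. A probe set of HSPA1A, an inducible chaperone, lay between 13.41 and 14.62 in 7 arrays and at 3.42 in susceptible array 10, and that animal number was at 4.24 at 24 h and 5.55 at 48 h. The probe sets of this gene disagree: a second one was also low in susceptible array 10, at 4.96, but another was at 14.27 there and differed by 0.07 ± 0.55 between the phenotypes. A probe set of BANP, a nuclear matrix protein, was at 10.86 in susceptible array 10 and at 2.11 or less in the other 7, and at 11.19 and 10.42 in the later arrays of that number, while its other kept probe set was at 8.96 in that array and differed by -0.03 ± 0.21. TYRP1, a pigment enzyme, ran from 2.61 in resistant array 05 to 12.79 in resistant array 03. PRSS2, a trypsin, was at 5.24, 9.37, 9.52, 8.83 and 9.0 in resistant arrays, against 3.78, 3.55 and 9.78 in susceptible arrays. LPO, lactoperoxidase, was at 7.72, 5.91, 7.51, 8.96 and 7.83 in resistant arrays, against 2.18, 3.52 and 5.94 in susceptible arrays. Resistant array 02 and susceptible array 11 were level and the other arrays lay apart by phenotype, with a difference of 3.71 ± 1.46 (limma, unadjusted p = 0.0171).

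XIST, the transcript of the inactive X chromosome, was at 11.73 to 12.07 in resistant arrays 01, 02 and 05 and at 4.60 or less in resistant arrays 03 and 04, against 12.51 in susceptible array 11 and 5.87 or less in susceptible arrays 09 and 10. Resistant number 03 was at -0.41 at 0 h but at 12.1 and 12.11 at 24 h and 48 h. Resistant number 05 was at 11.76 at 0 h but at 3.87 and 1.22 later. For these numbers the 0 h and later arrays do not match in XIST. Among later arrays, number 04 was at 1.27 at 24 h, and number 06 was at 12.2 and 12.26 at 24 h and 48 h. With XIST as a term, 420 probe sets were lower and 171 higher at an unadjusted p under 0.05, and limma called 0 at an adjusted p under 0.05.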
